A study of Mus musculus with 20 samples.

Results

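The gene sets of the lysosome, autophagy, endocytosis, phagocytosis, iron uptake and antigen presentation were followed across 7 comparisons of mouse myeloid cells and melanoma lines. Members were chosen by their names alone, from words for these compartments and processes, leaving out names with B_CELL, T_CELL or MACROPHAGE. They numbered 30 of the 3886 gene sets listed, and held 15 to 321 genes each. The single member whose name ends in DN, which marks genes lowered by a treatment, is given apart, so that counts below cover 29 sets, or 28 in the cell lines. Of these 29 sets, 19 came from Reactome, 5 from KEGG and 5 from other sources.

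The myeloid libraries came from bone marrow or spleen of adult C57BL/6 mice that were healthy, carried B16F10 tumours or carried YUMM3.3 tumours. B16F10 is a transplantable mouse melanoma line, and YUMM3.3 was derived from a mouse engineered to develop melanoma. Bone marrow gave 3 healthy, 3 B16F10-bearing and 2 YUMM3.3-bearing libraries, spleen gave 2 of each, and each line in culture gave 3. The cells are called myeloid in the labels and were obtained by removing cells with CD3e, a T cell marker, so B cells, erythroid cells and platelets may be left. No per-gene values were analysed, so the myeloid label could not be checked against marker genes. Time after tumour injection, the sex of the animals and the tie between libraries and animals are not given in the sources used here.

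Endocytosis, phagocytosis and autophagy all deliver cargo to the lysosome, an acid compartment kept so by the vacuolar ATPase, a proton pump. Iron enters cells largely on transferrin, which is taken up by endocytosis and gives off its iron in acidified endosomes. Macrophages and dendritic cells also cut engulfed proteins into peptides and show them on major histocompatibility complex (MHC) class II, whereas class I shows peptides that the proteasome makes in the cytosol. Cross-presentation is the route by which engulfed protein reaches class I. Melanosomes, the pigment organelles of melanocytes, are relatives of lysosomes.

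Each value is the authors' normalised enrichment score (NES), a measure of how far the genes of a set gather at one end of the list of all genes ranked by a comparison. It is not a fold change, and its size cannot be compared as an amount between comparisons. Signs are set so that a positive NES means higher in the group named first. A set counted as called at a deposited false discovery rate q (FDR q) below 0.05. Both tumours were set against the same healthy libraries in each tissue, so their comparisons are not independent. There is 1 value per set and comparison, so no spread between libraries can be given. The deposited q values do not measure the spread between animals, as the nominal p of the scores in spleen shows. Relabelling the libraries there could give no less than 0.167. The REACTOME_MHC_CLASS_II_ANTIGEN_PRESENTATION score had a nominal p of 0.00117 with B16F10 against healthy spleen, and other members there were listed at 0. The depth of the libraries is unknown. Each marrow and spleen report was taken to list what is higher in the group its name gives first, and directions rest on that; a reversal common to them all cannot be told from the tables.

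In all, 15 of the 29 sets were called in at least 1 comparison and 14 in none, and 7 were called in at least 4. The matching shares of all listed sets were not computed, so these pooled counts do not set the members apart. The 29 sets were 2 lysosome, 2 iron uptake, 5 phagocytosis, 3 endocytosis, 7 autophagy and 8 antigen presentation sets, and 2 sets whose names hold ANTIGEN in another sense. In B16F10-bearing against healthy marrow 11 of 29 were higher and 1 lower, where 20.1% of all listed sets were higher and 5.00% lower. In YUMM3.3-bearing against healthy marrow 7 were higher (all sets 9.68%) and 1 lower (6.52%). Between the tumours in marrow, 0 were higher with B16F10 (8.09%) and 4 lower (8.40%). Spleen of B16F10-bearing animals had 6 members higher (16.6%) and 0 lower (1.60%) against healthy, and that of YUMM3.3-bearing animals 3 higher (15.6%) and 1 lower (5.31%). B16F10-bearing against YUMM3.3-bearing spleen gave 4 higher (9.63%) and 0 lower (1.47%). YUMM3.3 against B16F10 cells gave 1 of 28 higher (11.8%) and 4 lower (1.47%). As shares of the members, 37.9% and 24.1% were called higher in marrow with B16F10 and YUMM3.3, 20.7% and 10.3% in spleen, and 14.3% were called lower in the YUMM3.3 line. The spleen shares lie near the background, and in YUMM3.3-bearing spleen the share called higher is below it.

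**Figure D1:**
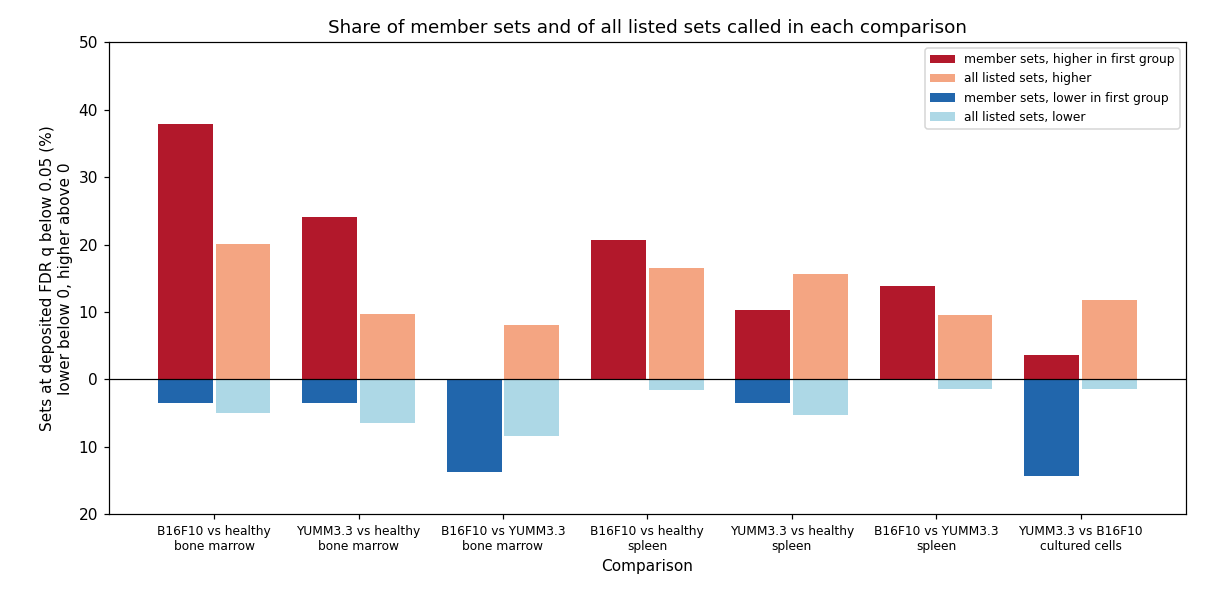
Share of the 29 member sets (28 in cells, dark bars) and of all listed sets (light bars) with a deposited FDR q below 0.05 in each comparison, in percent, with sets higher in the first-named group above 0 and lower ones below. Members called higher reach 37.9% in B16F10-bearing against healthy marrow beside 20.1% of all sets, and members called lower reach 14.3% in the cell lines beside 1.47%.

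The median NES of the members was 1.44 in B16F10-bearing against healthy marrow, where that of all sets was 0.96, and 24 of 29 members had a positive NES. It was 0.97 for YUMM3.3-bearing against healthy marrow (all sets 0.74) and 1.13 between the tumours (all sets 0.72). In spleen it was 1.19 with B16F10 (all sets 1.09), -0.66 with YUMM3.3 (all sets -0.69) and 1.20 between the tumours (all sets 1.04). In the cell lines the members lay at -0.88 and all sets at 1.08, and 9 of 28 members had a positive NES beside 73.3% of all sets. NES values gather on either side of 0, so a median close to balance can change sign with few sets. The medians in spleen differed little from those of all sets, and the cell lines were the comparison in which the members lay on the other side.

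**Figure D2:**
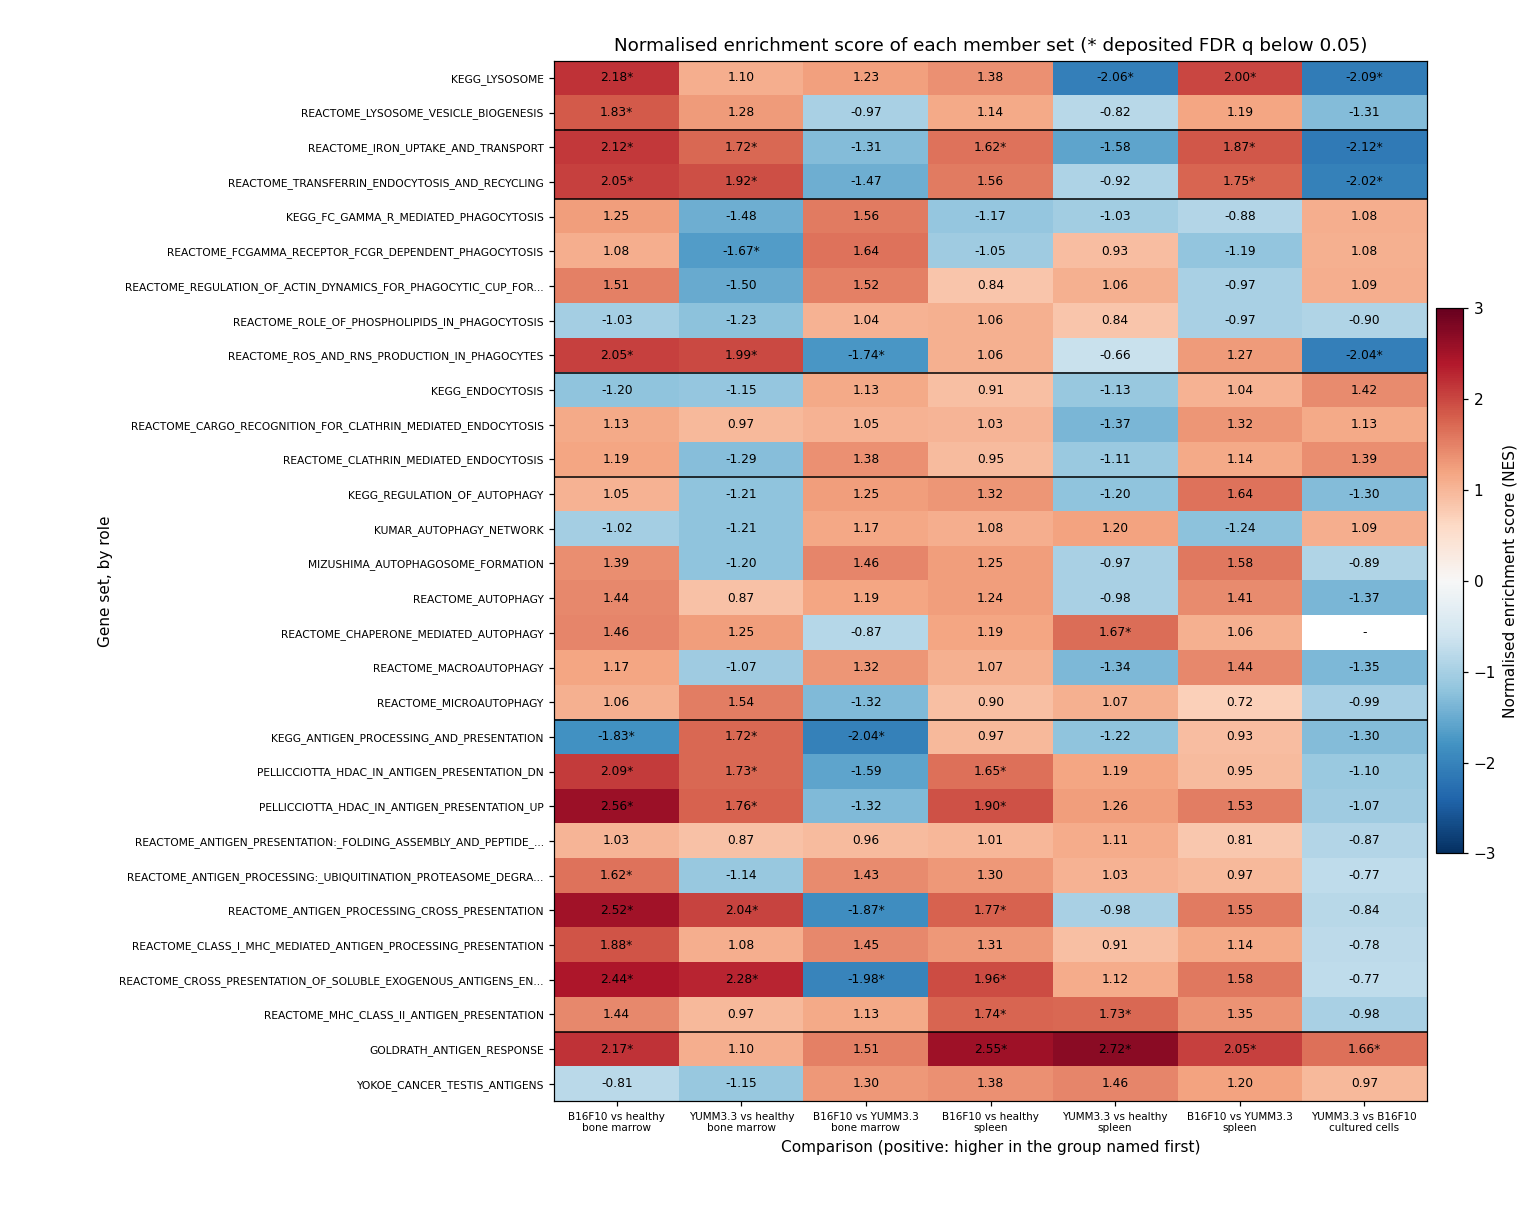
NES of all 30 member sets (rows, grouped by role with black lines) in the 7 comparisons (columns), red where the set was higher in the first-named group and blue where lower, with * for a deposited FDR q below 0.05. The lysosome and iron rows at the top are red in B16F10-bearing marrow and blue in the YUMM3.3 line. None of the 3 endocytosis sets carries a mark in any column, where 1.47% to 20.1% of all listed sets were called per direction.

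The KEGG set of lysosomal genes was higher in marrow of B16F10-bearing animals than in healthy marrow, lower in spleen of YUMM3.3-bearing than of healthy animals, and lower in YUMM3.3 than in B16F10 cells. KEGG_LYSOSOME holds 117 genes, among them acid hydrolases, lysosomal membrane proteins and pump subunits. Against healthy marrow, the authors' deposited table gave it an NES of 2.18 with B16F10 (FDR q = 0.000122) and 1.10 with YUMM3.3 (FDR q = 0.505). Between the tumours in marrow it was not called (NES 1.23, FDR q = 0.297, the authors' deposited table). In spleen it was listed at 1.38 with B16F10 (FDR q = 0.19) and at -2.06 with YUMM3.3 (FDR q = 0.00522) in the authors' deposited table. Between the tumours in spleen it was called toward B16F10 (NES 2.00, FDR q = 0.00217, the authors' deposited table). In YUMM3.3 against B16F10 cells the authors' deposited table listed KEGG_LYSOSOME at -2.09, with FDR q listed at 0, eighth by NES size of the 1032 sets on the B16F10 side. Its leading edge, the genes ranked before the maximum of the score, held 56% of the set within 18% of the ranked list in the cells, and 43% within 21% in B16F10-bearing marrow. Of 13 monocyte, macrophage and dendritic cell sets, 4 were higher (all sets 20.1%) and 2 lower (5.00%) in B16F10-bearing against healthy marrow. Their part in the lysosome result was not tested.

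REACTOME_LYSOSOME_VESICLE_BIOGENESIS, 30 genes for carrying enzymes from the Golgi to the lysosome, was called in 1 comparison. The authors' deposited table gave it an NES of 1.83 in B16F10-bearing against healthy marrow (FDR q = 0.00872). Elsewhere its NES in the authors' deposited table ran from -1.31 in the cells to 1.28 in YUMM3.3-bearing marrow, none of them called. The lysosome call in spleen of YUMM3.3-bearing animals was therefore carried by KEGG_LYSOSOME alone of the pair, the vesicle biogenesis set having an NES of -0.82 there in the authors' deposited table.

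Transferrin and iron uptake sets were higher in marrow with either tumour than in healthy marrow, higher in spleen with B16F10 than with YUMM3.3, and lower in YUMM3.3 than in B16F10 cells. REACTOME_TRANSFERRIN_ENDOCYTOSIS_AND_RECYCLING (29 genes) covers the transferrin receptor cycle. Against healthy marrow the authors' deposited table gave it 2.05 with B16F10 (FDR q = 0.000844) and 1.92 with YUMM3.3 (FDR q = 0.00332), and -1.47 between the tumours (FDR q = 0.119). In spleen it stood at 1.56 with B16F10 (FDR q = 0.0718), -0.92 with YUMM3.3 (FDR q = 0.726) and 1.75 between the tumours (FDR q = 0.029) in the authors' deposited table. The cells gave -2.02 in the authors' deposited table (FDR q = 0.000573), with 52% of the set in the first 6% of the list on the B16F10 side.

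REACTOME_IRON_UPTAKE_AND_TRANSPORT (54 genes) adds iron storage and export to the transferrin cycle. In marrow the authors' deposited table listed it at 2.12 with B16F10 (FDR q = 0.000271), 1.72 with YUMM3.3 (FDR q = 0.0237) and -1.31 between the tumours (FDR q = 0.245). In spleen it was at 1.62 with B16F10 (FDR q = 0.0496), just inside the threshold, at -1.58 with YUMM3.3 (FDR q = 0.082) and at 1.87 between the tumours (FDR q = 0.0099) in the authors' deposited table. In the cells the authors' deposited table gave -2.12 with FDR q listed at 0, the third largest NES size among the 1032 sets on the B16F10 side. Erythroid precursors take up much transferrin iron and were not removed by CD3e depletion. Of 12 sets named for erythroid cells or heme, 1 was higher (all sets 20.1%) and 0 lower (5.00%) in B16F10-bearing marrow. In YUMM3.3-bearing marrow 0 were higher (9.68%) and 1 lower (6.52%). With B16F10 against YUMM3.3 in marrow 1 was higher (8.09%) and 0 lower (8.40%). In spleen 3 were higher (16.6%) and 0 lower (1.60%) with B16F10, and 3 higher (15.6%) and 1 lower (5.31%) with YUMM3.3. Between the tumours in spleen 2 of these sets were higher (9.63%) and 0 lower (1.47%). Their part in the iron result was not tested, and in bulk samples fewer cells of a type and less RNA per cell cannot be told apart.

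REACTOME_ROS_AND_RNS_PRODUCTION_IN_PHAGOCYTES (35 genes), the oxidant burst set, was higher in marrow with either tumour than in healthy marrow and lower in YUMM3.3 than in B16F10 cells. The authors' deposited table gave it an NES of 2.05 with B16F10 (FDR q = 0.00085) and 1.99 with YUMM3.3 (FDR q = 0.00148) against healthy marrow. Between the tumours it was lower with B16F10 in the authors' deposited table (NES -1.74, FDR q = 0.0239). It was called in no spleen comparison, where the authors' deposited table held 1.06, -0.66 and 1.27 for B16F10 against healthy, YUMM3.3 against healthy and B16F10 against YUMM3.3. In the cells it was again among the largest on the B16F10 side, ninth, the authors' deposited table giving an NES of -2.04 (FDR q = 0.000424). Melanoma cells are not professional phagocytes. In Reactome this set, the transferrin set and the iron uptake set all list subunits of the vacuolar ATPase, as KEGG_LYSOSOME does, so their scores are not separate. Which genes carried each score could not be seen, because the tables analysed here hold no member genes.

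**Figure D3:**
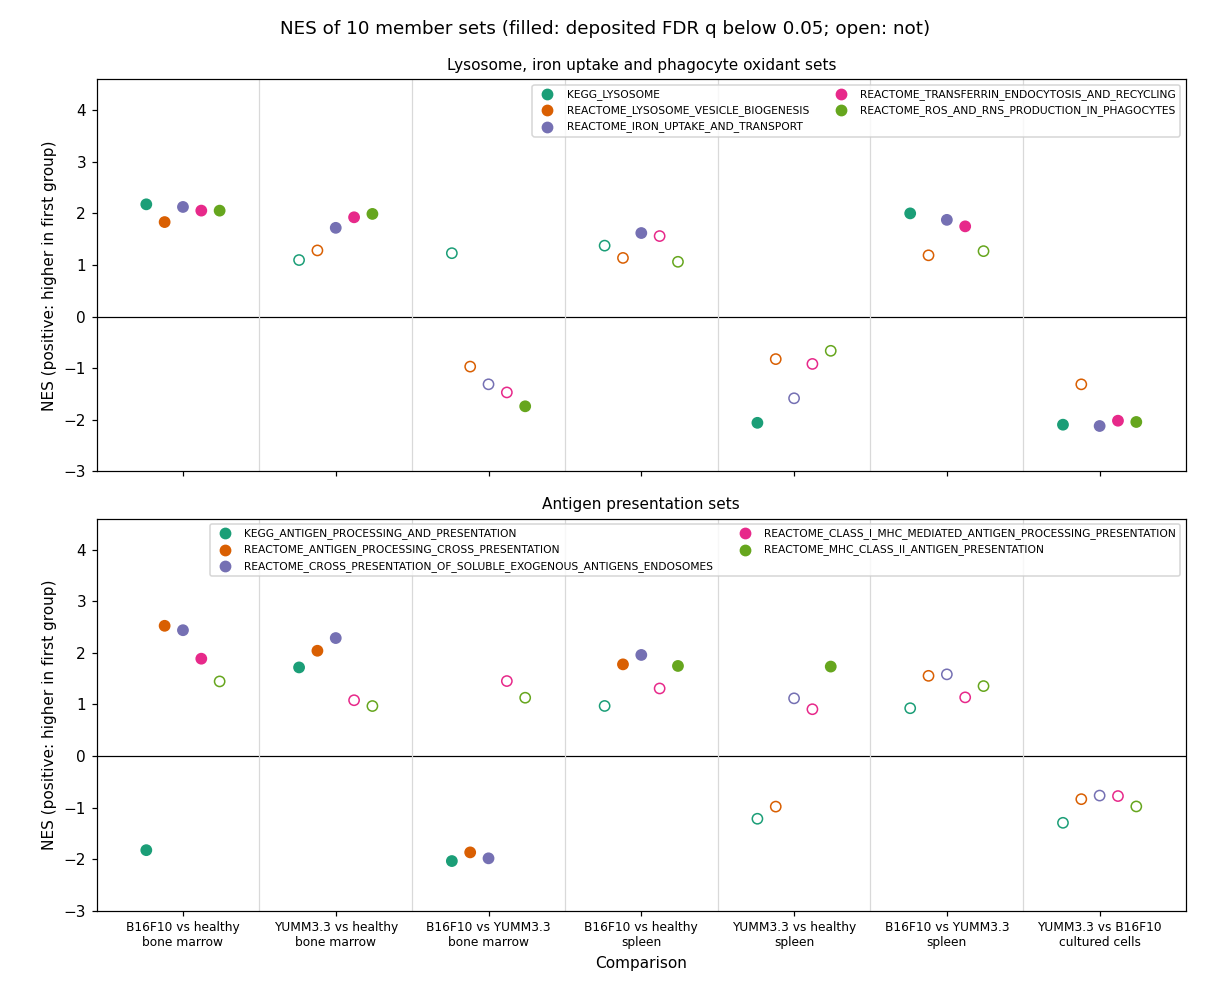
NES (vertical axes, positive where higher in the first-named group) of 5 lysosome, iron and oxidant sets (top) and 5 antigen presentation sets (bottom) in each comparison, filled where the deposited FDR q is below 0.05. The top sets are all filled and above 0 in B16F10-bearing against healthy marrow and 4 of 5 are filled and below 0 in the cells. The bottom panel shows KEGG_ANTIGEN_PROCESSING_AND_PRESENTATION at -1.83 and 1.72 in marrow with B16F10 and YUMM3.3.

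The other phagocytosis sets, which cover signalling from antibody receptors and the engulfing cup, did not follow the oxidant set. REACTOME_FCGAMMA_RECEPTOR_FCGR_DEPENDENT_PHAGOCYTOSIS (77 genes) was lower in YUMM3.3-bearing than in healthy marrow by the authors' deposited table, at the edge of the threshold (NES -1.67, FDR q = 0.0494). With B16F10 it stood at 1.08, and between the tumours at 1.64 (FDR q = 0.0533), in the authors' deposited table. KEGG_FC_GAMMA_R_MEDIATED_PHAGOCYTOSIS (83 genes in marrow and spleen) had an NES of 1.25 with B16F10 and -1.48 with YUMM3.3 against healthy marrow, and 1.56 between them (FDR q = 0.0795), in the authors' deposited table. In marrow REACTOME_REGULATION_OF_ACTIN_DYNAMICS_FOR_PHAGOCYTIC_CUP_FORMATION had 1.51, -1.50 and 1.52 in the same order in the authors' deposited table, none of them called. These 3 sets had a positive NES with B16F10 and a negative one with YUMM3.3 in marrow, and 1 of these values passed the threshold. REACTOME_ROLE_OF_PHOSPHOLIPIDS_IN_PHAGOCYTOSIS was negative with both there, at -1.03 and -1.23 in the authors' deposited table, neither called. In spleen the sizes of NES of these 4 sets stayed between 0.84 and 1.19 in the authors' deposited table.

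None of the 3 endocytosis sets was called in any comparison. Of all listed sets, 1.47% to 20.1% were called per direction and comparison, so 0 of 3 in any 1 comparison is not far from that share. The share of all sets called in none of the 7 comparisons was not computed. KEGG_ENDOCYTOSIS covers the uptake machinery at large and REACTOME_CLATHRIN_MEDIATED_ENDOCYTOSIS the coated pits through which transferrin enters. The authors' deposited table gave KEGG_ENDOCYTOSIS -1.20 and -1.15 against healthy marrow with B16F10 and YUMM3.3, and 0.91 and -1.13 in spleen. For REACTOME_CLATHRIN_MEDIATED_ENDOCYTOSIS it gave 1.19 and -1.29 in marrow and 0.95 and -1.11 in spleen, again in the authors' deposited table. In the cells all 3 endocytosis sets had a positive NES, 1.13 to 1.42 in the authors' deposited table, while the transferrin set was negative. The lowest q of the role over all comparisons was 0.128, for KEGG_ENDOCYTOSIS in the cells in the authors' deposited table.

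Of the 7 autophagy sets 1 was called, in 1 comparison, where 15.6% of all sets were called in that direction, so the count is near the background. The called set was REACTOME_CHAPERONE_MEDIATED_AUTOPHAGY, a set of 15 genes for the import of single proteins into lysosomes, higher in YUMM3.3-bearing than in healthy spleen (NES 1.67, FDR q = 0.022, the authors' deposited table). Its leading edge held 27% of these 15 genes, within 9% of the list, and the set is too small for the alternative of 25 to 200 genes. REACTOME_AUTOPHAGY (86 genes) stood at 1.44 with B16F10 (FDR q = 0.0963) and 0.87 with YUMM3.3 against healthy marrow, and at 1.24 and -0.98 in spleen, in the authors' deposited table. MIZUSHIMA_AUTOPHAGOSOME_FORMATION, the core machinery that builds the autophagosome, had 1.39 and -1.20 in marrow and 1.25 and -0.97 in spleen in the authors' deposited table. In spleen with B16F10 against YUMM3.3, 6 of the 7 sets had a positive NES, up to 1.64 for KEGG_REGULATION_OF_AUTOPHAGY (FDR q = 0.061, the authors' deposited table). KUMAR_AUTOPHAGY_NETWORK was the exception there, at -1.24 in the authors' deposited table. Reactome's macroautophagy set is part of its autophagy set, so these are not separate values.

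The 8 antigen presentation sets, the largest of the roles, did not move as one. In B16F10-bearing against healthy marrow 5 were higher and 1 lower, where 20.1% and 5.00% of all sets were. In YUMM3.3-bearing marrow 4 were higher (all sets 9.68%) and 0 lower (6.52%), and between the tumours 0 were higher with B16F10 (8.09%) and 3 lower (8.40%). In spleen 4 were higher with B16F10 (16.6%). With YUMM3.3 1 was higher there, a share near that of all sets (15.6%), and between the tumours 0 were called. None was called in the cells, where the lowest FDR q was 0.39.

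The cross-presentation sets, in which proteasome subunits weigh heavily, were higher in marrow with either tumour and lower with B16F10 than with YUMM3.3. REACTOME_CROSS_PRESENTATION_OF_SOLUBLE_EXOGENOUS_ANTIGENS_ENDOSOMES (46 genes) had an NES of 2.44 with B16F10 and 2.28 with YUMM3.3 against healthy marrow in the authors' deposited table, both with FDR q listed at 0. Between the tumours it was at -1.98 in the authors' deposited table (FDR q = 0.00268). In spleen it stood at 1.96 with B16F10 (FDR q = 0.00102), 1.12 with YUMM3.3 (FDR q = 0.447) and 1.58 between them (FDR q = 0.0832) in the authors' deposited table. Against healthy marrow 83% of its genes lay in the leading edge with B16F10, within 20% of the ranked list, and 52% with YUMM3.3, within 11%. The set was thus called higher with either tumour than in healthy marrow, and lower with B16F10 than with YUMM3.3.

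REACTOME_ANTIGEN_PROCESSING_CROSS_PRESENTATION (91 genes), which contains the endosomal set, gave the same picture. In marrow the authors' deposited table held 2.52 with B16F10 (FDR q listed at 0), 2.04 with YUMM3.3 (FDR q = 0.00087) and -1.87 between the tumours (FDR q = 0.00858). In spleen it held 1.77 with B16F10 (FDR q = 0.0123), -0.98 with YUMM3.3 (FDR q = 0.62) and 1.55 between them (FDR q = 0.0966), in the authors' deposited table. KEGG_PROTEASOME, which is no member, had 2.52, 2.33 and -2.00 in the same order in marrow and 2.06, 1.83 and 1.31 in spleen in the authors' deposited table. It was called in all of these but the last, so the proteasome set was higher in YUMM3.3-bearing spleen, where the cross-presentation sets were not called. Genes shared with the proteasome set could not be counted here.

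The larger class I sets were called in B16F10-bearing marrow only among the 7 comparisons, and between the tumours neither passed the threshold. REACTOME_CLASS_I_MHC_MEDIATED_ANTIGEN_PROCESSING_PRESENTATION (321 genes) had an NES of 1.88 there (FDR q = 0.00558), 1.08 with YUMM3.3 (FDR q = 0.529) and 1.45 between the tumours (FDR q = 0.127) in the authors' deposited table. Its subset REACTOME_ANTIGEN_PROCESSING:_UBIQUITINATION_PROTEASOME_DEGRADATION, which is mostly ubiquitin ligases, stood at 1.62 with B16F10 (FDR q = 0.0378) and -1.14 with YUMM3.3 in the authors' deposited table. The subset for loading class I itself, REACTOME_ANTIGEN_PRESENTATION:_FOLDING_ASSEMBLY_AND_PEPTIDE_LOADING_OF_CLASS_I_MHC, was called nowhere, with an NES between 0.81 and 1.11 in the 6 myeloid comparisons of the authors' deposited table. Reactome nests these sets inside one another, so they are not separate observations.

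KEGG_ANTIGEN_PROCESSING_AND_PRESENTATION, which holds class I and class II molecules and their loading factors, moved in opposite directions with the tumours in marrow. Against healthy marrow the authors' deposited table gave it -1.83 with B16F10 (FDR q = 0.0212) and 1.72 with YUMM3.3 (FDR q = 0.0248). The direct comparison of the tumours gave -2.04 in the authors' deposited table (FDR q = 0.00136), lower with B16F10. With B16F10 31% of its 71 genes lay in the first 6% of the list on the healthy side. In spleen it was called in no comparison, with 0.97, -1.22 and 0.93 in the authors' deposited table. B cells and natural killer cells express many genes of this set and were not removed with CD3e. Of 26 B cell sets, 5 were higher (all sets 20.1%) and 4 lower (5.00%) in B16F10-bearing marrow, with a median NES of -1.16. The lowest NES of that list there was -2.74, for HADDAD_B_LYMPHOCYTE_PROGENITOR, in the authors' deposited table. The highest was 2.11, for REACTOME_ACTIVATION_OF_NF_KAPPAB_IN_B_CELLS, so the list did not move as one. In YUMM3.3-bearing marrow 4 were higher (9.68%) and 3 lower (6.52%), and between the tumours 2 were higher (8.09%) and 2 lower (8.40%). Of 10 T and NK cell sets, 1 was higher (all sets 20.1%) and 2 lower (5.00%) in B16F10-bearing marrow. In YUMM3.3-bearing marrow 0 of them were higher (9.68%) and 1 lower (6.52%). With B16F10 against YUMM3.3 there 1 was higher (8.09%) and 0 lower (8.40%). Their part in the KEGG result was not tested.

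Class II presentation, by contrast, was called in spleen. REACTOME_MHC_CLASS_II_ANTIGEN_PRESENTATION (105 genes) includes motor and coat proteins of vesicle traffic and lysosomal proteases beside class II itself. In spleen the authors' deposited table gave it 1.74 with B16F10 (FDR q = 0.0167) and 1.73 with YUMM3.3 (FDR q = 0.0135) against healthy, and 1.35 between the tumours (FDR q = 0.224). Its leading edge there was small, 27% and 20% of the set, within 10% and 8% of the list. In marrow it was not called, at 1.44 with B16F10 (FDR q = 0.0941), 0.97 with YUMM3.3 and 1.13 between them in the authors' deposited table. It was the sole antigen presentation set called with both tumours in spleen. Whether marrow and spleen differ in any of these sets was not tested, as no value bears on the tissues together. Of 26 B cell sets, 2 were higher (all sets 16.6%) and 3 lower (1.60%) in B16F10-bearing against healthy spleen. With YUMM3.3 there 3 were higher (15.6%) and 2 lower (5.31%), and between the tumours 0 were higher (9.63%) and 3 lower (1.47%). The part of B cells in the class II result was not tested.

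PELLICCIOTTA_HDAC_IN_ANTIGEN_PRESENTATION_UP, antigen presentation genes raised by inhibiting histone deacetylases, was higher with both tumours in marrow and with B16F10 in spleen. The authors' deposited table gave it 2.56 (FDR q listed at 0) and 1.76 (FDR q = 0.0173) in marrow, and 1.90 (FDR q = 0.00248) with B16F10 and 1.26 with YUMM3.3 in spleen. Its counterpart ending in DN, for genes lowered by the same inhibition, was called in the same 3 comparisons and in the same direction. That set stood at 2.09 (FDR q = 0.000524) and 1.73 (FDR q = 0.0223) in marrow and at 1.65 (FDR q = 0.0374) with B16F10 in spleen in the authors' deposited table. Neither was called between the tumours or in the cells.

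The remaining members hold the word antigen in another sense. GOLDRATH_ANTIGEN_RESPONSE, 295 genes high in CD8 T cells at the peak of a response and rich in cell division genes, had the largest NES of all members in spleen. The authors' deposited table gave it 2.55 with B16F10 and 2.72 with YUMM3.3 against healthy spleen, both with FDR q listed at 0, and 2.05 between the tumours (FDR q = 0.000945). In marrow it stood at 2.17 with B16F10 (FDR q = 0.000185), 1.10 with YUMM3.3 and 1.51 between them (FDR q = 0.0972), and in the cells at 1.66 (FDR q = 0.0271), in the authors' deposited table. It was the single member called higher in YUMM3.3 than in B16F10 cells. Of 10 T and NK cell sets, 2 were higher (all sets 16.6%) and 2 lower (1.60%) in B16F10-bearing against healthy spleen. With YUMM3.3 there 2 were higher (15.6%) and 1 lower (5.31%), and between the tumours 1 was higher (9.63%) and 0 lower (1.47%). Their part in the score of GOLDRATH_ANTIGEN_RESPONSE was not tested. YOKOE_CANCER_TESTIS_ANTIGENS, germ cell genes that tumours can switch on, was called nowhere, with sizes of NES from 0.81 to 1.46 in the authors' deposited table.

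**Figure D4:**
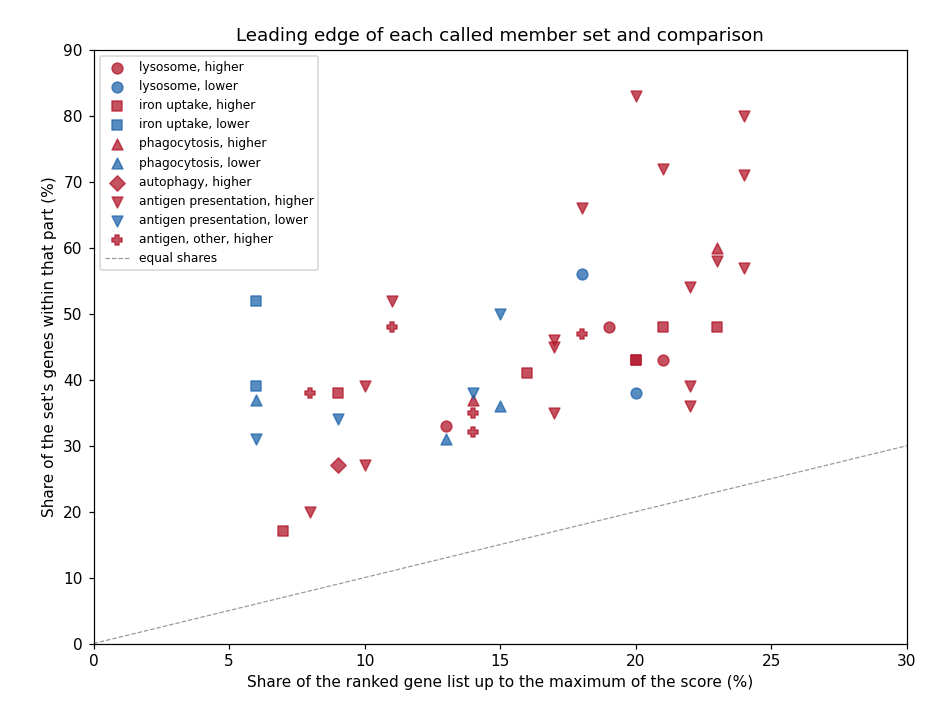
For each of the 46 calls of member sets (the set ending in DN included), the share of the set's genes in its leading edge (vertical, percent) against the share of the ranked list that the leading edge spans (horizontal, percent), by role and direction. Shares of the set run from 17% to 83% and shares of the list from 6% to 24%. Every point lies above the line of equal shares, which the score largely fixes for a called set. The antigen presentation sets called higher are spread from 20% of the set within 8% of the list to 83% within 20%.

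The neighbouring sets were 43 sets for vesicle traffic, the Golgi, mTOR, sphingolipids, scavenger receptors and the proteasome. Of these, 10 were higher (all sets 20.1%) and 1 lower (5.00%) in B16F10-bearing marrow. In YUMM3.3-bearing marrow 7 were higher (9.68%) and 7 lower (6.52%). Between the tumours in marrow 12 were higher (8.09%) and 3 lower (8.40%) with B16F10. The 3 lower sets, named after their values were seen, were KEGG_PROTEASOME, REACTOME_DEGRADATION_OF_GLI1_BY_THE_PROTEASOME and REACTOME_FCERI_MEDIATED_NF_KB_ACTIVATION. The last, though named for a mast cell receptor, had the signs of KEGG_PROTEASOME in marrow. It stood at 2.12 with B16F10, 2.07 with YUMM3.3 and -1.73 between them in the authors' deposited table. REACTOME_FCERI_MEDIATED_CAPLUS2_MOBILIZATION, named for the same receptor, had -1.97, -1.64 and 1.56 in that order in the authors' deposited table. The other neighbours given here were also chosen after their values were seen. KEGG_MTOR_SIGNALING_PATHWAY, for the growth kinase that restrains autophagy and lysosome formation, was at 1.13 with B16F10, -1.83 with YUMM3.3 (FDR q = 0.0213) and 1.93 between them (FDR q = 0.00794) in the authors' deposited table. REACTOME_INTRA_GOLGI_TRAFFIC had -0.72, -2.00 (FDR q = 0.00508) and 1.91 (FDR q = 0.00966) in the same order in the authors' deposited table. In YUMM3.3-bearing marrow both sets were thus called lower, against healthy and against B16F10, where the cross-presentation sets were called higher.

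In spleen the neighbours gave 5 higher (all sets 16.6%) and 1 lower (1.60%) with B16F10. With YUMM3.3 5 were higher (15.6%) and 1 lower (5.31%), and between the tumours 1 was higher (9.63%). That set was REACTOME_BINDING_AND_UPTAKE_OF_LIGANDS_BY_SCAVENGER_RECEPTORS, at 1.99 between the tumours (FDR q = 0.00249), 1.73 with B16F10 (FDR q = 0.0199) and -1.25 with YUMM3.3 in the authors' deposited table. Its signs in spleen were those of KEGG_LYSOSOME, which was not called with B16F10 against healthy. Of 13 monocyte, macrophage and dendritic cell sets, 1 was higher (all sets 15.6%) and 3 lower (5.31%) in YUMM3.3-bearing against healthy spleen. With B16F10 against YUMM3.3 in spleen 5 were higher (9.63%) and 0 lower (1.47%). Of 11 platelet sets, 1 was higher (all sets 15.6%) and 5 lower (5.31%) in YUMM3.3-bearing against healthy spleen. Between the tumours in spleen 4 of them were higher (9.63%) and 0 lower (1.47%). Their part in the lysosome and iron results in spleen was not tested. In the cells 0 of the 43 neighbours were called by the deposited FDR q, where 11.8% of all sets were called higher and 1.47% lower. KEGG_LYSOSOME, both iron uptake sets and the oxidant set, whose scores are not separate, were called lower there.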

How the data were processed

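Messenger RNA was measured in 14 libraries of myeloid cells and 6 of melanoma lines, grouped by what the labels give as tissue, disease and cell type. Per the submitters' processing notes, FastQC 0.11.8, STAR 2.7.1a, featureCounts 1.6.0, DESeq2 1.22.2 and the mm10 build were used, with no role given. The files analysed are 14 gene set enrichment reports, 1 per direction for 7 comparisons. Per the file headers, the deposited scores are an enrichment score and an NES per set, and the deposited p-values are a nominal p, an FDR q and a family-wise p. The ranking and permutation of genes are not given in the sources used here.

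Reports of both directions were joined with Python 3.11.15 and pandas 2.3.3, and the size of NES was signed toward the first-named group. The deposited sign did not follow group order: it was negative in the reports of the tumour groups against healthy. In the cell lines the labels up and down were used. Reading of the reports was tested on simulated data. No test was run here: calls are the deposited FDR q below 0.05, counts and medians stand beside those of all sets, and the percentage beside a count is the share of all listed sets called in that direction. Named by rule are all members called at least once and 11 pathway sets listed by name; other uncalled members that are named were picked after their values were seen. The members and lists were chosen with earlier results of these data known. Lists of T cell and heme sets took whole words only, so that HOST_CELL and the like stayed out. Alternatives were an FDR q below 0.25, sets of 25 to 200 genes, and curated pathway databases alone.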

Additional observations from a re-analysis of the deposited data

How the results depend on the processing

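With an FDR q below 0.25, members called higher rose to 17 in B16F10-bearing against healthy marrow (37.1% of all sets), 10 between the tumours in marrow (21.3%), 11 in B16F10-bearing spleen (34.7%), 12 between the tumours in spleen (28.4%) and 3 in the cells (35.4%). Members called lower rose to 4 in YUMM3.3-bearing marrow (20.1%), 8 between the tumours in marrow (17.9%) and 4 in YUMM3.3-bearing spleen (25%). Sets of 25 to 200 genes alone left 1 member higher in YUMM3.3-bearing spleen (16.9% of all such sets) and 0 in the cells (12.6%), and curated pathway databases alone left 0 in the cells (6.51%). No median changed sign or moved by over 1.5 times under these choices of sets. Of the 43 calls, 14 also had a family-wise p below 0.05, and the matching share over all called sets was not computed. No library could be left out, since values exist only per comparison. No paired analysis was possible because the values are 1 per set and comparison. The unknown depth limits what an uncalled set shows.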
